A study of Mus musculus with 6 samples.

Results

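The interferon regulatory factors (Irf genes) were followed in haematopoietic stem cells of mice labelled Irgm1-/- and of wild-type mice. Of 8 Irf genes, Irf7 was the 1 gene past the threshold, at 4.60-fold the wild-type level. All probe sets that the platform table assigns to exactly 1 of the symbols Irf1, Irf2, Irf3, Irf4, Irf5, Irf7, Irf8 and Irf9 were taken, which gave 14 of the 45101 probe sets on the array. Tests were run on probe sets that exceeded the median of their array in 3 or more of the 6 arrays, as 13 of the 14 did. Each of the 8 genes kept at least 1 tested probe set.

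The 3 arrays of the Irgm1-/- group, named for the older symbol Lrg-47 in the sample titles, came from mutant C57BL/6 mice aged 8 to 12 weeks. The 3 wild-type (WT) arrays came from C57BL/6 mice of the same age. Irgm1 encodes an interferon-inducible GTPase, and both groups were kept in a specific pathogen-free facility. In both, stem cells were sorted from whole bone marrow as the Hoechst side population with Sca-1, c-kit and lineage staining, and their RNA was amplified in 2 rounds of T7 transcription. The labels do not give which part of Irgm1 was deleted, how many mice each array pools, or whether arrays of a group came from separate animals, so p-values measure only the spread between these arrays.

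Irf proteins share an N-terminal DNA-binding domain that reads repeats of the letters GAAA in the promoters of interferon-regulated genes. Irf3, Irf5 and Irf7 are activated by kinases downstream of receptors for viral and bacterial molecules and switch on the interferon genes. Irf9 is the DNA-binding part of the complex ISGF3, which also holds Stat2 and carries the signal of type I interferon to the nucleus. Irf1 and Irf2 bind the same sites as activator and as antagonist, and Irf4 and Irf8 direct the development of blood cells together with partners such as the Ets factor Spi1. In haematopoietic stem cells Irf2 is known as a factor that restrains interferon signalling.

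Values are log2 expression per probe set as deposited, and a difference is Irgm1-/- minus WT. Differences and their standard errors (SE) are from a limma fit over all 22580 probe sets tested, with p-values adjusted by Benjamini-Hochberg over all of them. Adjusted p under 0.05 was the threshold, which 1.39% of all tested probe sets passed in either direction, 0.664% of them higher and 0.722% lower. Irgm1 itself read 7.68, 8.58 and 7.84 in Irgm1-/- cells, against 8.39, 8.57 and 8.36 in WT cells. The groups overlapped (difference -0.41, SE 0.25, limma adjusted p = 0.475), and a probe set outside the deleted part would check nothing. The 10 tested stem cell markers, such as Procr, Kit and Meis1, lay above the bacterial control probe sets on all 6 arrays. The highest control value per array, used below as the floor, was between 3.00 and 3.18.

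Some arrays stood apart in markers of other cells. In WT replicate 1 the plasmacytoid dendritic cell markers Siglech (4.16), Ly6d (4.32), Cox6a2 (3.62) and Spib (5.69) lay above the floor. On the other 5 arrays each was at or below it. Other listed markers of these cells did not set this array apart. Tcf4 read 10.70 there, below all Irgm1-/- arrays, and Klk1 read 8.10, against 8.26 in WT replicate 3. Ccr9 (4.57) and Pacsin1 (4.51) were highest there by a small margin. Ighm, the immunoglobulin heavy chain of B cells, read 12.74 in WT replicate 1, and between 4.99 and 9.0 on the other arrays. Among T and NK cell markers, 3 of 8 tested genes rose, against 0.664% of all tested probe sets. These were the chemokine Ccl5 (difference 4.93), the protease Gzmb (3.69) and the receptor chain Klrd1 (3.97). The summed level of the 17 T and NK cell genes on the array was 13.07, 13.01 and 13.95 (log2 of the sum) in Irgm1-/- cells, against 9.73, 9.13 and 9.83 in WT cells. Ccl5 alone read 12.81, 12.77 and 13.52 in Irgm1-/- cells, against 8.69, 7.33 and 8.29 in WT cells, and made up most of the Irgm1-/- sums. The 5 tested genes that did not pass differed by -0.21 (Lat), 0.19 (Cd247), 0.77 (Cd3e), 0.87 (Cd8a) and 2.61 (Nkg7). Of these 17 genes, Cd4, Cd8b1, Zap70, Ncr1 and Prf1 were at or below the floor on every array. Irgm1-/- replicate 3 was highest in the T cell genes Cd3d (6.92) and Cd3g (7.06). Of 5 tested megakaryocyte markers 1 was called higher, the platelet receptor subunit Gp1bb (1.44, SE 0.21). Gp1bb read 4.47, 4.29 and 4.995 in Irgm1-/- cells, against 2.93, 3.06 and 3.44 in WT cells. WT replicates 1 and 2 were at or below the floor. Gp1bb exceeded the array median only on the 3 Irgm1-/- arrays. It was thus tested because of the group in which it was high, and its call is not counted as support. With no filter its limma adjusted p was 0.0639. The megakaryocyte list summed to between 11.05 and 11.51 in Irgm1-/- cells, against 9.72 to 10.18 in WT cells. The stem cell markers, of which 0 of 10 passed, summed to between 14.41 and 14.57 in Irgm1-/- cells, against 14.68 to 14.83 in WT cells. For 4 of the 10 (Procr, Kit, Hlf and Gata2) the Irgm1-/- arrays lay below all WT arrays, against 11% of all tested probe sets. For 1, Slamf1, they lay above, against 11.5%. Of 2 conventional dendritic cell, 6 monocyte, 3 neutrophil and 1 erythroid genes tested 0 passed.

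Irf7 was the member that changed. Its product is the master factor for the interferon alpha genes and is itself induced by interferon through ISGF3. The single Irf7 probe set (1417244_a_at) read 9.32, 9.92 and 9.76 in Irgm1-/- cells, against 7.95, 7.71 and 6.73 in WT cells. All 3 Irgm1-/- arrays lay above all 3 WT arrays, a pattern found in 11.5% of all tested probe sets. The means were 9.67 ± 0.31 in Irgm1-/- cells and 7.46 ± 0.65 in WT cells (SD, n = 3 each). The difference was 2.20 (SE 0.33, limma adjusted p = 0.0313), a 4.60-fold rise with a 95% confidence interval of 2.68 to 7.90. By p-value Irf7 ranked 161 among the 22580 probe sets tested.

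The size of the Irf7 difference was stable across settings while its call was not. Over 17 alternatives the difference ranged from 1.84 to 2.45, and it was past the threshold in 9 of them (adjusted p between 0.00523 and 0.117). The call was lost in the other 8, which included fits with no filter on dim probe sets (adjusted p = 0.0744), with a looser filter (0.0625) and without any 1 array but WT replicate 3; the remaining loss was under the block for replicate number (0.110). Without WT replicate 1, which carried some plasmacytoid dendritic cell markers, the difference was 2.45. Without Irgm1-/- replicate 3, where the T cell genes were highest, it was 2.16. The smallest difference, 1.84, was that without WT replicate 3, the lowest WT array for Irf7. Summed T and NK cell markers, mostly Ccl5, and summed megakaryocyte markers were higher on every Irgm1-/- array. Their part in the Irf7 difference was not tested. In bulk samples such as these, more cells of a type that expresses a gene and more RNA per cell cannot be told apart.

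**Figure D1:**
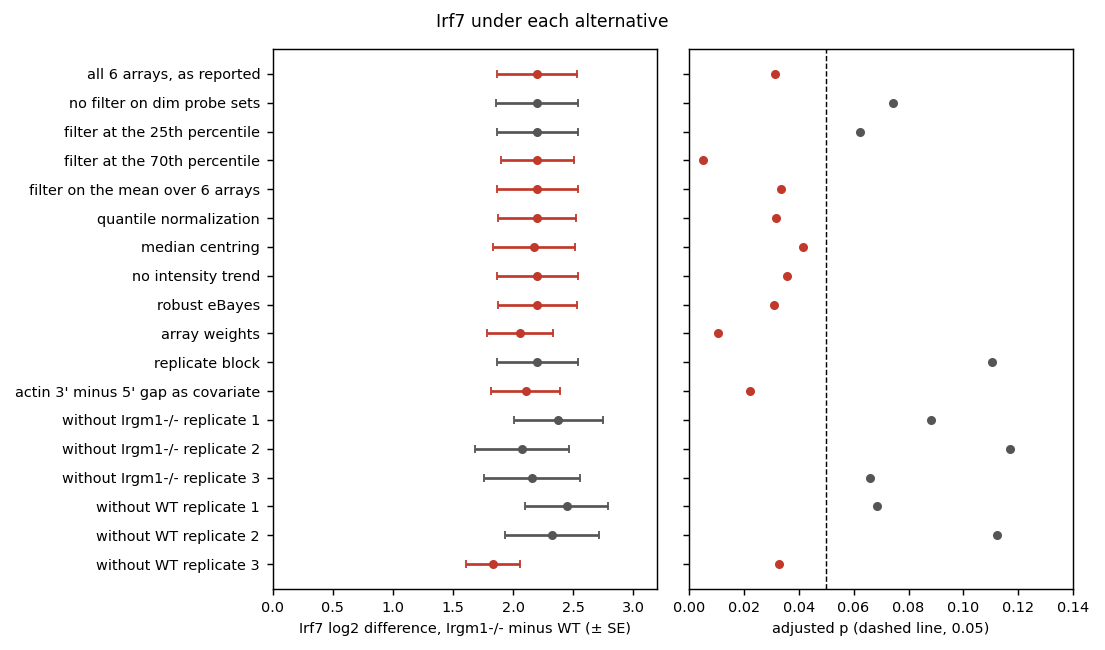
Irf7 log2 difference, Irgm1-/- minus WT, with its SE (left) and its adjusted p (right) under each setting; red marks adjusted p under 0.05 and the dashed line is that threshold. The difference stays between 1.84 and 2.45 while the adjusted p falls on both sides of the threshold.

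The promoter of Irf7 is shown because this was the member that changed. It is printed as the 175 bases upstream of the outermost annotated start in RefSeq (GRCm38.p6, chr7:141266500-141266674, minus strand), 5′ to 3′.
Irf7: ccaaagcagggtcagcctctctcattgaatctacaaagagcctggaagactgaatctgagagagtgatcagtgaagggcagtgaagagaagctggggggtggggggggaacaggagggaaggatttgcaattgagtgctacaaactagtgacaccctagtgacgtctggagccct
In RefSeq windows from 250 bases before to 50 after a start, 3 motifs were searched. The ISRE core, from the interferon-stimulated response element, was taken as GAAA, any 2 bases and GAAA, and was in 3.44% of all 32851 windows. The gamma-activated sequence was taken as TTCNNNGAA, in 8.3% of windows. The Ets-Irf composite was taken as GGAA, any 2 bases and GAAA, in 2.72% of windows. Both strands were searched, TTCNNNGAA reads the same on both, and the other motifs can overlap. The Irf7 window, like those of Irf3, Irf4, Irf5 and Irf9, held none of them, which says only that these letters are not in the window.

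Irf3, the constitutive partner of Irf7 in the response to nucleic acids, was read by 4 probe sets, and none passed. The probe set of the RefSeq transcript (1416898_a_at) read 8.58, 8.39 and 8.89 in Irgm1-/- cells, against 8.70, 8.77 and 7.82 in WT cells (difference 0.18, SE 0.28, limma adjusted p = 0.798). The groups overlapped, WT replicate 3 being the lowest array. A further probe set (1426111_x_at, a suffix that Affymetrix gives to probes that can also match other transcripts) read 10.83, 10.56 and 11.23 in Irgm1-/- cells, against 11.02, 10.92 and 10.11 in WT cells. It gave nearly the same difference (0.19, 95% confidence interval -0.46 to 0.84), again with WT replicate 3 lowest. The probe set 1438721_a_at differed by 0.32 (SE 0.18, limma adjusted p = 0.437), and 1435271_at by -0.05 (SE 0.43, limma adjusted p = 0.966). Of the Irf3 probe sets 1435271_at spread most among replicates, from 7.35 to 8.94 in Irgm1-/- cells and from 7.52 to 8.51 in WT cells. Without WT replicate 3 the differences of 1416898_a_at and 1426111_x_at were -0.12 and -0.10, so no direction is given for Irf3.

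Irf5, which acts downstream of Toll-like receptors in inflammatory cytokine induction, did not pass either. The probe set 1460231_at read 7.23, 7.38 and 7.26 in Irgm1-/- cells, against 7.57, 7.50 and 6.51 in WT cells (difference 0.09, SE 0.30, limma adjusted p = 0.906). The Irgm1-/- arrays lay within the range of the WT arrays, whose lowest value was again that of replicate 3. The other Irf5 probe set, 1449678_at, stayed between 4.57 and 4.61 on all 6 arrays (difference 0.02, 95% confidence interval -0.24 to 0.29).

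Irf9, the DNA-binding subunit of ISGF3, read 7.31, 7.79 and 7.53 in Irgm1-/- cells, against 7.80, 7.60 and 7.47 in WT cells (1421322_a_at). The groups overlapped, and the difference was -0.08 (SE 0.19, limma adjusted p = 0.873). The 95% confidence interval ran from -0.54 to 0.37, which leaves out a rise of the size measured for Irf7. Its partner Stat2 differed by 0.17 (SE 0.22, limma adjusted p = 0.752).

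Irf1, a short-lived activator induced by interferon gamma, read 9.997, 10.44 and 10.46 in Irgm1-/- cells, against 10.59, 10.56 and 9.95 in WT cells (1448436_a_at). The difference was -0.07 (SE 0.22, limma adjusted p = 0.915) with a 95% confidence interval of -0.58 to 0.45. Its antagonist Irf2 read 7.03, 7.04 and 6.03 in Irgm1-/- cells, against 6.12, 6.78 and 6.99 in WT cells (1418265_s_at, a suffix for probes that can be shared between transcripts). The Irf2 groups overlapped fully, with 1 low array in each (difference 0.07, SE 0.35, limma adjusted p = 0.942). The array low for Irf2 was replicate 3 in Irgm1-/- cells and replicate 1 in WT cells.

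Promoter stretches of Irf1 and Irf2 are shown because both held motif matches although neither gene passed. Matches to the 3 motifs are in capitals. The Irf1 stretch is chr11:53769894-53769953 and the Irf2 stretch chr8:46739495-46739554, both GRCm38.p6, plus strand and upstream of the RefSeq start.
Irf1: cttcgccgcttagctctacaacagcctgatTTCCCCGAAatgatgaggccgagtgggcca
Irf2: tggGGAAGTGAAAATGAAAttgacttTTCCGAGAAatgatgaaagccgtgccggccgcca
The capitals in Irf1 are 1 match to TTCNNNGAA that begins 90 bases before the start. In Irf2 the longer run joins overlapping matches to the Ets-Irf composite and the ISRE core, and the shorter run is a match to TTCNNNGAA. Of 11 member windows 1, that of Irf2, held the ISRE core and the composite.

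Irf4 and Irf8, the haematopoietic members, had lower values in Irgm1-/- cells and did not pass. Irf4 (1421173_at), which drives plasma cell and effector T cell fates, read 6.19, 6.97 and 7.50 in Irgm1-/- cells, against 8.05, 8.06 and 7.74 in WT cells. All 3 Irgm1-/- arrays lay below all WT arrays, as 11% of all tested probe sets did. The means were 6.88 ± 0.66 in Irgm1-/- cells and 7.95 ± 0.18 in WT cells (SD, n = 3 each), a difference of -1.07 (SE 0.33, limma adjusted p = 0.180, unadjusted p = 0.0123). Over the alternatives it ranged from -1.38 to -0.72, with an adjusted p of 0.0532 at the lowest, under array weights, and the difference was nearest to 0 without Irgm1-/- replicate 1. The other Irf4 probe set, 1421174_at, lay between 2.19 and 2.26 on all 6 arrays, at or below the floor, and was not tested. Both Irf4 probe sets carry the same accession. Only 1421173_at read above the floor, so it alone stands behind the Irf4 values.

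Irf8 is needed for monocytes and dendritic cells and restrains granulocyte output. Its probe set 1416714_at read 6.02, 6.26 and 6.26 in Irgm1-/- cells, against 7.33, 6.84 and 6.40 in WT cells. The groups did not overlap, and the difference was -0.68 (SE 0.26, limma adjusted p = 0.257, unadjusted p = 0.0310). The probe set 1448452_at read 3.73, 4.98 and 4.97 in Irgm1-/- cells, against 5.41, 5.72 and 4.96 in WT cells, where WT replicate 3 fell among the Irgm1-/- values. Its difference was -0.80 (SE 0.37, limma adjusted p = 0.330), and -0.39 without Irgm1-/- replicate 1, the array at 3.73. Both Irf8 probe sets thus had the same sign, and they derive from the same accession.

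The WT array that carried some plasmacytoid dendritic and B cell markers was also the highest for 1416714_at. On 1448452_at (5.72) and for Irf4 (8.06) WT replicate 2 was instead the highest array. Without WT replicate 1 the Irf8 difference on 1416714_at was -0.44 (limma adjusted p = 0.486), against -0.78 on 1448452_at and -1.02 for Irf4. Leaving out the highest WT array makes a negative difference smaller in size whatever the cause. Of 8 plasmacytoid dendritic cell markers on the array 4 were tested and 0 passed, and their summed level was 11.24, 11.00 and 11.09 in Irgm1-/- cells, against 11.03, 10.93 and 10.86 in WT cells. Of 8 B cell markers 3 were tested and 0 passed, with sums of 9.16, 8.99 and 7.55 in Irgm1-/- cells, against 12.78, 8.76 and 9.37 in WT cells. Of 7 monocyte and macrophage markers on the array 6 were tested and 0 passed, with sums of 10.78, 11.67 and 11.24 in Irgm1-/- cells, against 11.79, 11.49 and 10.99 in WT cells, and Fcgr1 was at or below the floor throughout. These sums say little of most markers in the lists. Tcf4, which did not set WT replicate 1 apart, made up most of each plasmacytoid sum, and Lyz2 most of each monocyte sum. Ighm made up most of the B cell sum on all arrays but Irgm1-/- replicate 3. WT replicate 1 was the highest WT array for Csf1r, the receptor of macrophage colony-stimulating factor, which read 7.35, 8.55 and 8.24 in Irgm1-/- cells, against 8.28, 6.41 and 5.99 in WT cells. The same held for Adgre1 (5.20, against 3.79 and 4.08 on the other WT arrays) and Ccr2 (4.13, against 2.86 and 2.80). It also held for Lyz2 (11.21, against 10.85 and 10.30). Cd14 and Cx3cr1 were instead highest among WT arrays in replicate 2. For Cd14 all Irgm1-/- arrays lay below all WT arrays, as in 11% of all tested probe sets. The Cd14 difference was -1.25 (SE 0.23, limma adjusted p = 0.0518). Cybb, a phagocyte oxidase subunit among the Irf4 and Irf8 targets, read 4.67, 7.22 and 3.92 in Irgm1-/- cells, against 7.55, 3.07 and 3.01 in WT cells. Among the B cell markers Cd79a, Pax5 and Vpreb1 were at or below the floor on all 6 arrays. The part of these cells in the Irf8 and Irf4 values was not tested.

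**Figure D2:**
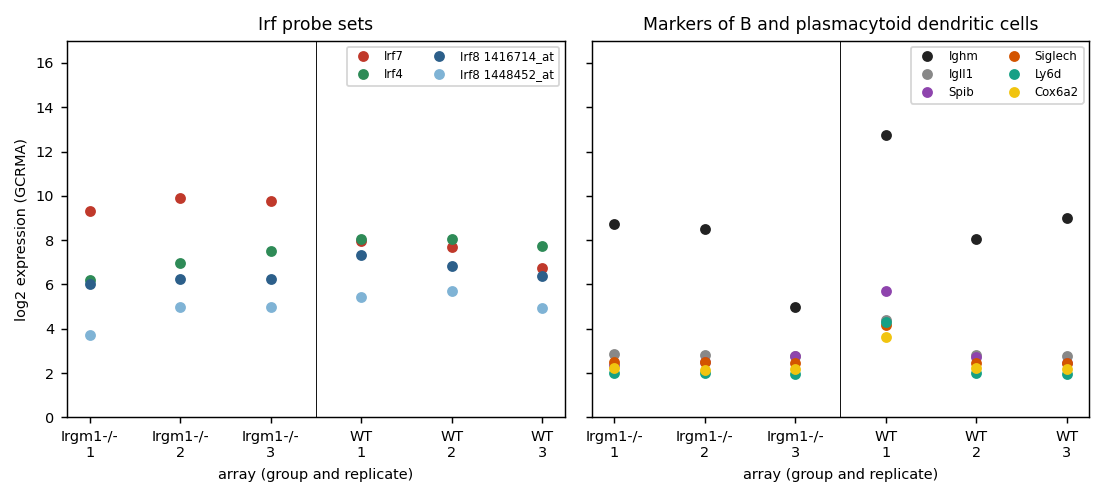
Log2 expression on each array of Irf7, Irf4 and both Irf8 probe sets (left) and of some B and plasmacytoid dendritic cell markers (right). The 3 Irgm1-/- arrays are left of the 3 WT arrays. The markers shown were each highest in WT replicate 1. Other listed markers are not shown, among them Tcf4 and Klk1, which were not highest there. In WT replicate 1 Spib reached 5.69 and Siglech 4.16, and the same array had the highest Irf8 value (7.33) on 1416714_at. On the Irf8 probe set 1448452_at (5.72) and for Irf4 (8.06) WT replicate 2 was highest.

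The Irf8 promoter is shown for its paired matches, in the stretch chr8:120736158-120736227 (GRCm38.p6, plus strand, upstream of the RefSeq start).
Irf8: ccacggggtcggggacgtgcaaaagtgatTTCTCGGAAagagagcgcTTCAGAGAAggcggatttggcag
The capitals are 2 matches to TTCNNNGAA that begin 171 and 153 bases before the start. Irf1, Irf2 and Irf8 made up the 3 of 11 member windows with this motif (27.3%, against 8.3% of all windows), and none of the 3 genes passed the test.

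Among the 13 tested Irf probe sets 1 was called higher and 0 lower, against 0.664% and 0.722% of all tested probe sets. Of the differences 7 were positive and 6 negative, and their median was 0.02, against 0.01 over all probe sets tested. Without adjustment, 1 higher and 2 lower probe sets had p under 0.05, where 16.4% of all tested probe sets did. The groups did not overlap for 3 of the 13 (Irf7, Irf4 and the Irf8 probe set 1416714_at), against 22.6% of all tested probe sets. The scatter among WT arrays followed 1 array: WT replicate 3 was the lowest WT array for 12 of the 13 Irf probe sets, and for 38.9% of all tested probe sets. Among the Irgm1-/- arrays replicate 1 was lowest for 8 of the 13, against 33.6% of all tested probe sets. The 3′ minus 5′ gap of the actin controls, a sign of transcript coverage, was 2.86, 2.81 and 3.56 in Irgm1-/- cells, against 3.16, 3.16 and 2.57 in WT cells, with WT replicate 3 at the low end. The same gap of the Gapdh controls was 2.57, 2.56 and 2.94 in Irgm1-/- cells, against 2.77, 2.72 and 3.08 in WT cells, with WT replicate 3 at the high end. The gaps thus placed that array at opposite ends. With the actin gap as a covariate Irf7 differed by 2.11 (limma adjusted p = 0.0221), Irf4 by -1.18 (0.0689) and Irf8 by -0.74 (0.140, 1416714_at).

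**Figure D3:**
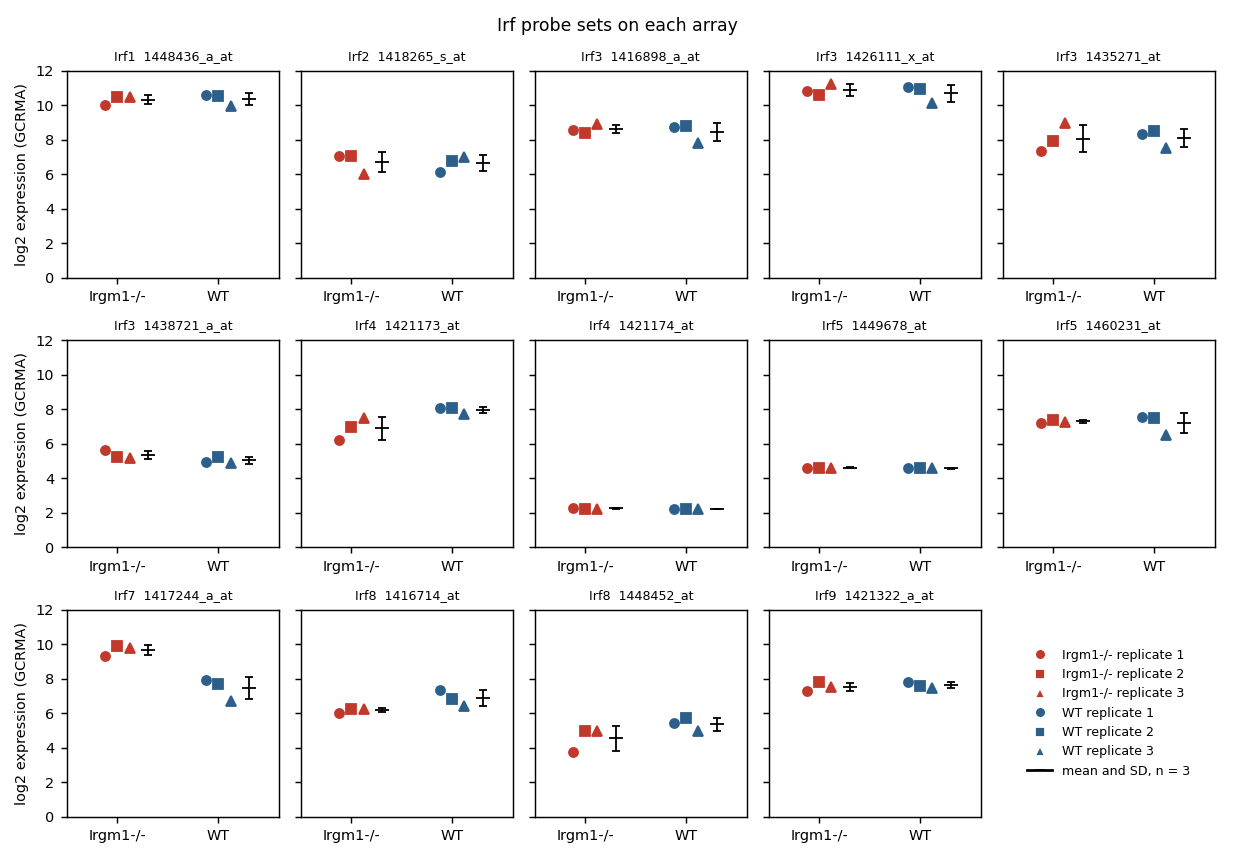
Log2 expression of all 14 Irf probe sets on each array, Irgm1-/- (red) left of WT (blue), with marker shape for the replicate and bars for mean and SD (n = 3). Irf7 is the panel where the Irgm1-/- arrays (9.32 to 9.92) stand well above the WT arrays (6.73 to 7.95).

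**Figure D4:**
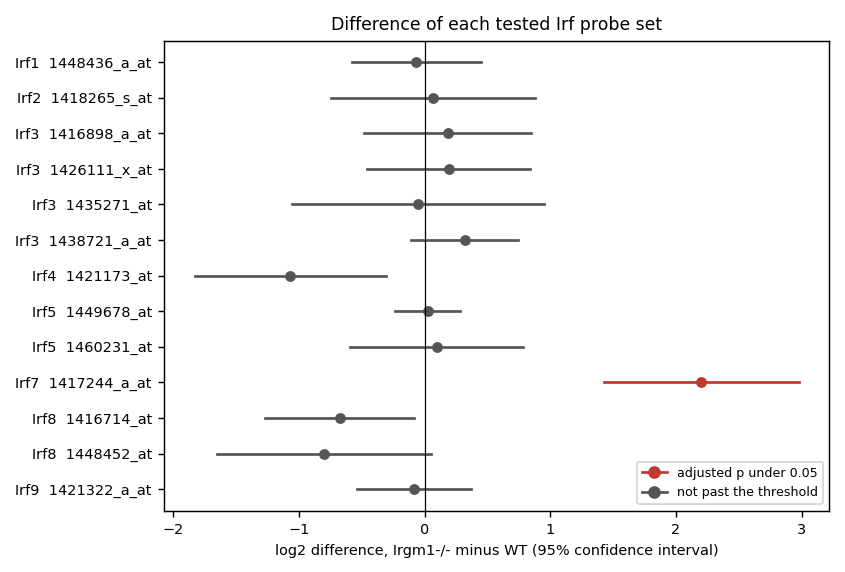
Log2 difference, Irgm1-/- minus WT, of the 13 tested Irf probe sets with 95% confidence intervals; red marks adjusted p under 0.05. Irf7 lies at 2.20, Irf4 and Irf8 lie below 0, and the other intervals include 0, as does that of the Irf8 probe set 1448452_at.

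The machinery that activates Irf proteins was measured next, by 1 probe set a gene, the tested one with the highest mean. Of 13 tested adaptors and kinases 0 passed in either direction, and their median difference was 0.03. The smallest p-values belonged to Tank, a scaffold of the kinases Tbk1 and Ikbke (0.67, SE 0.24, limma adjusted p = 0.227), and to Mavs, the mitochondrial adaptor of RNA sensors (0.59, SE 0.20, limma adjusted p = 0.227). Irak1, a kinase of the Toll-like receptor route to Irf7, differed by 0.37 (SE 0.14, limma adjusted p = 0.266) and Irak2 by -0.35 (SE 0.17, limma adjusted p = 0.350). For Tank, Mavs and Irak1 the Irgm1-/- arrays lay above the WT arrays, as in 11.5% of all tested probe sets, and for Tbkbp1, an adaptor of Tbk1, they lay below (difference -0.32, SE 0.17, limma adjusted p = 0.418). Tbk1, the kinase that phosphorylates Irf3, read 12.14, 12.09 and 11.82 in Irgm1-/- cells, against 11.74, 11.87 and 11.93 in WT cells, and the groups overlapped.

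Of 9 tested binding partners 0 passed, with a median of 0.17. Batf2, a leucine zipper factor that pairs with Irf proteins in macrophages, came closest (0.59, SE 0.19, limma adjusted p = 0.200), followed by Batf (0.42, SE 0.23, limma adjusted p = 0.418). The coactivators Crebbp and Ep300 differed by 0.30 and 0.28 (limma adjusted p = 0.481 and 0.556). Of 10 tested genes that restrain Irf proteins or bind Irf2, 0 passed, with a median of -0.05. For Foxo3, a repressor of Irf7 transcription (difference -0.43, SE 0.16, limma adjusted p = 0.259), and Eif4ebp1, which limits Irf7 translation (-0.35, SE 0.16, limma adjusted p = 0.342), the Irgm1-/- arrays lay below the WT arrays, as in 11% of all tested probe sets. Irf2bp2, a corepressor of Irf2, differed by 0.53 (limma adjusted p = 0.327) and the ubiquitin ligase subunit Rbck1 by 0.62 (limma adjusted p = 0.376). The Irgm1-/- arrays lay above the WT arrays for Rbck1, and overlapped them for Irf2bp2. In all, 3 genes of this list lay wholly below, the third being Irf2bp1, and 1 wholly above.

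Interferon transcripts were mostly at the floor. Of 10 interferon genes on the array 7 lay at or below it on all 6 arrays, among them Ifnb1 and 6 genes of the alpha group. Ifna5 lay between 3.12 and 3.22, next to the floor, and was not tested. Ifng, the interferon of T and NK cells, read 6.28, 5.53 and 8.54 in Irgm1-/- cells, against 3.97, 2.79 and 3.98 in WT cells. Its groups did not overlap, and it did not pass (difference 3.21, SE 0.73, limma adjusted p = 0.10). Under array weights 1 of the 2 tested interferons was called higher. Ifng was highest in Irgm1-/- replicate 3, the array with the highest T cell genes. Ifnz differed by -0.19 (limma adjusted p = 0.630).

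Known targets of Irf proteins rose in part. Of 24 tested genes with an ISRE, the site of ISGF3 and Irf7, 9 rose, 0 fell and 15 did not pass. Over all probe sets tested 0.664% were called higher. The median difference was 0.86, against 0.01 over all probe sets tested. The Irgm1-/- arrays lay above the WT arrays for 17 of the 24, against 11.5% of all tested probe sets. Rsad2, the antiviral enzyme viperin, read 12.98, 13.12 and 13.06 in Irgm1-/- cells, against 9.79, 9.51 and 9.87 in WT cells (difference 3.33, limma adjusted p = 0.000214). Usp18, a brake on the interferon receptor, rose by 2.98 (SE 0.29), Oasl1, which in mouse represses Irf7 translation, by 2.92 (SE 0.30), and Ifit1, which binds viral RNA, by 4.10 (SE 0.47). Without WT replicate 1 the count was 4, without WT replicate 2 it was 3, and without WT replicate 3 it was 6; without Irgm1-/- replicates 1, 2 and 3 it was 5, 5 and 6. With no filter and with the looser filter it was 6, and under the block for replicate number 2. The part of the T and NK cell markers in these rises was not tested.

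Of 15 tested genes known as targets of Irf1, 4 rose, 0 fell and 11 did not pass, with a median of 0.56. The share called higher over all tested probe sets was 0.664%. Those that rose were the chemokine Cxcl10 (3.88, SE 0.27), the guanylate-binding protein Gbp3 (1.09, SE 0.12), the immunoproteasome subunit Psmb9 (0.82, SE 0.13) and the caspase Casp1 (0.99, SE 0.16). Irf1 itself was at -0.07. Leaving out any 1 array brought the count to 1 or 2, no filter or the looser filter on dim probe sets to 2, and the block for replicate number to 1. Of 7 tested targets of Irf4 and Irf8, 0 passed and the median was -0.02. The plasma cell factor Prdm1 differed by -0.29 (SE 0.13, limma adjusted p = 0.322) and the protease Ctss by -0.40 (SE 0.20, limma adjusted p = 0.368). These target lists overlap with interferon genes already known to be high in these samples, so their counts are no independent support.

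**Figure D5:**
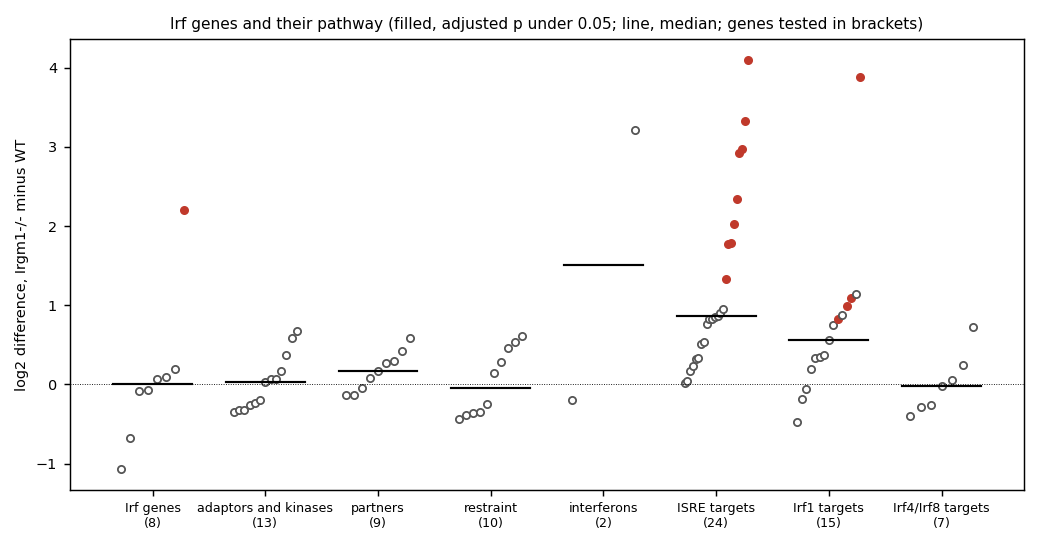
Log2 difference, Irgm1-/- minus WT, of each tested gene in the Irf family and its pathway lists; filled red points passed adjusted p under 0.05, lines are medians, and brackets give genes tested. Calls lie in Irf7, 9 of 24 ISRE targets and 4 of 15 Irf1 targets, and the upstream lists have none.

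The genes nearest to Irf7 across the 6 arrays were found by the root-mean-square difference of values centred on each gene's mean. Nearest was Ifit3 (0.26), which read 8.93, 10.09 and 10.11 in Irgm1-/- cells, against 7.94, 7.37 and 6.78 in WT cells. The antiviral synthetase gene Oas2 (0.31), the cytokine signalling inhibitor Socs2 (0.33), Ifi213, a mouse gene of the Ifi200 family (0.34), and P-selectin, Selp (0.34), followed. Each of these 5 genes, like Irf7, was lowest in WT replicate 3, which follows from how they were selected.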

How the data were processed

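Expression was measured on 6 Affymetrix arrays, 3 of Irgm1-/- and 3 of wild-type stem cells. The authors deposited 1 log2 value per probe set and array. Per the submitters' processing notes the tool was GCRMA, which adjusts for background by probe sequence, normalises arrays and summarises each probe set, and whose version is not given in the sources used here. That the scale is log2 follows from the range of values, which were used unchanged. Gene names came from the platform table, in which 34958 probe sets had 1 symbol, 932 several and 9211 none. Gene IDs of all 14 Irf probe sets were found in the RefSeq table of GRCm38.p6, and promoter sequences are RefSeq's for all 8 genes.

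The comparison used limma 3.58.1 under R 4.3.3 (lmFit, eBayes with an intensity trend, 2-sided), a fit that was tested on simulated data. The filter kept 22580 probe sets. Members, lists, tests and alternatives were chosen with earlier results of these data known. The alternatives were other filters, normalisations, variance models, a block for replicate number, weights per array, omission of each array in turn, another threshold and another choice of probe set. The actin gap as a covariate was added after seeing the data.

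Named genes were fixed as Irgm1, all Irf probe sets, up to 4 genes of each pathway list with the smallest p, the 5 genes nearest to a called Irf gene, and marker genes past the threshold. Stat2, Tbk1, Tbkbp1, Irf2bp1, Ifna5, Ifnb1 and other markers were named after their values were seen. Arrays have no read depth, and their number, 3 per group, limits the precision.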

Additional observations from a re-analysis of the deposited data

How the results depend on the processing

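The call of Irf7 was lost in several settings: of all Irf probe sets 0 were called higher with the replicate block, without filtering, when the filter was set at the 25th percentile and with any 1 array but WT replicate 3 left out, so leave-one-out counts ran from 0 to 1. No Irf probe set was called lower in any of these settings. Over all probe sets, counts were 150 higher and 163 lower. They were 49 and 54 with no filter, 62 and 64 at the 25th percentile, 401 and 463 with array weights, 27 and 41 with the replicate block, 314 and 315 at a threshold of 0.1, and 252 and 263 with the actin gap as a covariate. Leaving out 1 array gave 17 to 138 higher and 28 to 129 lower. Of 80 distinct pathway genes 13 were higher, where 0.664% of all tested probe sets were. The pathway count was 8 with no filter, 8 at the 25th percentile, 3 with the replicate block and 4 to 8 without 1 array. Every other setting kept these counts within 1.5 times. Signs of members that never passed turned in places. With array weights Irf3 was at -0.091 (1416898_a_at) and -0.084 (1426111_x_at) and Irf5 at -0.068 (1460231_at), and with median centring the other Irf5 probe set was at -0.0019. Without 1 array Irf1 ranged from -0.27 to 0.087, Irf2 from -0.19 to 0.40, Irf9 from -0.21 to 0.031, Irf5 (1460231_at) from -0.25 to 0.28, and Irf3 from -0.12 to 0.35 (1416898_a_at), -0.10 to 0.36 (1426111_x_at) and -0.49 to 0.30 (1435271_at). Irf7, Irf4 and both Irf8 probe sets kept their sign in all alternatives. Same-numbered arrays did not deviate together (correlations -0.11, -0.02 and -0.28). No array correlated best with its own number, so the replicate block rests on a number alone. With it Irf7 had adjusted p = 0.110. The median over all tested probe sets moved by under 0.1. Fits with 1 array left out hold fewer arrays and fits with looser filters more probe sets; the block changes neither, and the cause of the calls lost there was not tested.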
